A study of Mus musculus with 8 samples.

Results

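The photoreceptor cilium, BBSome and intraflagellar transport (IFT) genes are 35 named mouse genes, chosen by symbol for their place in this machinery. The array measured 32 of them by at least 1 probe set of their own, with 55 probe sets in all, out of 18193 genes and 45037 probe sets tested. *Rpgrip1l*, *Arl6* and *Arl13b* had no probe set under their symbol and were not analysed here. Of the 32 genes, 18 had 1 probe set and 14 had 2 to 4. RNA was taken from whole retinas of adult C57BL/6J mice, 80 to 120 days old by the labels, raised in dim cyclic light of 5 lux. The exposed mice spent 3, 7 or 14 days in 75% oxygen and the controls (day 0) stayed in normal oxygen. Each of the 4 times had 2 Affymetrix mouse genome arrays, 8 in all, and the first and second array of a time are those labelled replicate 1 and 2. The study's methods describe a pool of retinas from both sexes for every time. Both arrays of a time may thus hold RNA of the same pool, and p-values measure the spread between arrays, which may be technical.

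The light-sensitive outer segment of a photoreceptor is a modified cilium, joined to the cell body by a narrow connecting cilium whose transition zone gates what enters. Cargo moves along its microtubules on IFT trains, with the IFT-B particle and kinesin motors carrying it outward and the IFT-A particle serving the return. The BBSome is a coat complex that rides on these trains and sorts membrane proteins, and the gated transport of lipid-modified proteins brings rod signalling proteins into the outer segment. Mutations in many of these genes cause retinitis pigmentosa, Leber congenital amaurosis or syndromes with retinal degeneration.

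Values are on a log2 scale and are centred, so that the median of each probe set over the 8 arrays is 0. A probe set's value is thus its distance from its own median array, and no gene has a level that could be set against another gene's. Each gene is summarised by the mean of its probe sets. The log2 fold of a comparison is its later mean minus its earlier mean (2 arrays each), with its standard error (SE) from limma, which was fitted across all genes. For the same reason the tissue label could not be checked by the level of retinal genes. Medians of 13 lens genes lay between -1.67 and 3.49 over the arrays, and those of 7 cornea genes between -1.17 and 2.04. Lens medians were 1.91 and 3.49 at day 7, against -1.66 and 1.77 in controls and -1.67 and -0.65 at day 3. All 13 lens genes were higher at day 7 than at day 3. Cornea medians were 0.91 and 2.04 in controls, -1.17 and -0.98 at day 3 and -0.05 and -0.66 at day 7. The part of lens and cornea genes in the ciliary differences between times was not tested.

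Both second arrays of days 3 and 14 stood apart from the rest. Their 3' minus 5' difference of *Gapdh* was 1.19 at day 3 and 1.43 at day 14, where the remaining 6 arrays had -0.32 to 0.12. Medians of 16 microglia and macrophage genes were 1.12 and 1.11 there against -0.22 to 0.20 elsewhere, and all 16 were higher at day 14 than in controls. Medians of 13 gliosis genes were 1.35 and 1.23, against -0.36 to 0.23 elsewhere. *Gfap*, the glial filament gene, was 2.56 and 2.18 there, 0.36 on the first day 14 array and -1.09 to 0.04 on the 5 others. Medians of 18 rod genes were -0.32 and -0.36 there, -0.39 on the first day 3 array, and 0.02 to 0.10 on the 5 others. The median of the 32 ciliary genes was -0.22 on the second day 3 array, -0.20 on the second day 14 array and -0.05 to 0.06 elsewhere, while the median of all genes lay between -0.03 and 0.06 on every array. Of the 18 rod genes, 17 were lower at day 3 and 16 at day 14. The part of 3' bias and of the microglial, glial and rod genes in the ciliary values was not tested. By these measures the second day 3 array was closer to the second day 14 array than to the other array of its own time. The *GAPDH* ratios that the study lists by time set both day 14 arrays apart, and no day 3 array. Here the first day 14 array had a *Gapdh* difference of 0.05, within the range of the 6 remaining arrays. The labels of the second day 3 and first day 14 arrays are thus in doubt. They were kept as given, no array was regrouped, and every day 3 and day 14 difference holds for the arrays as labelled.

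**Figure D1:**
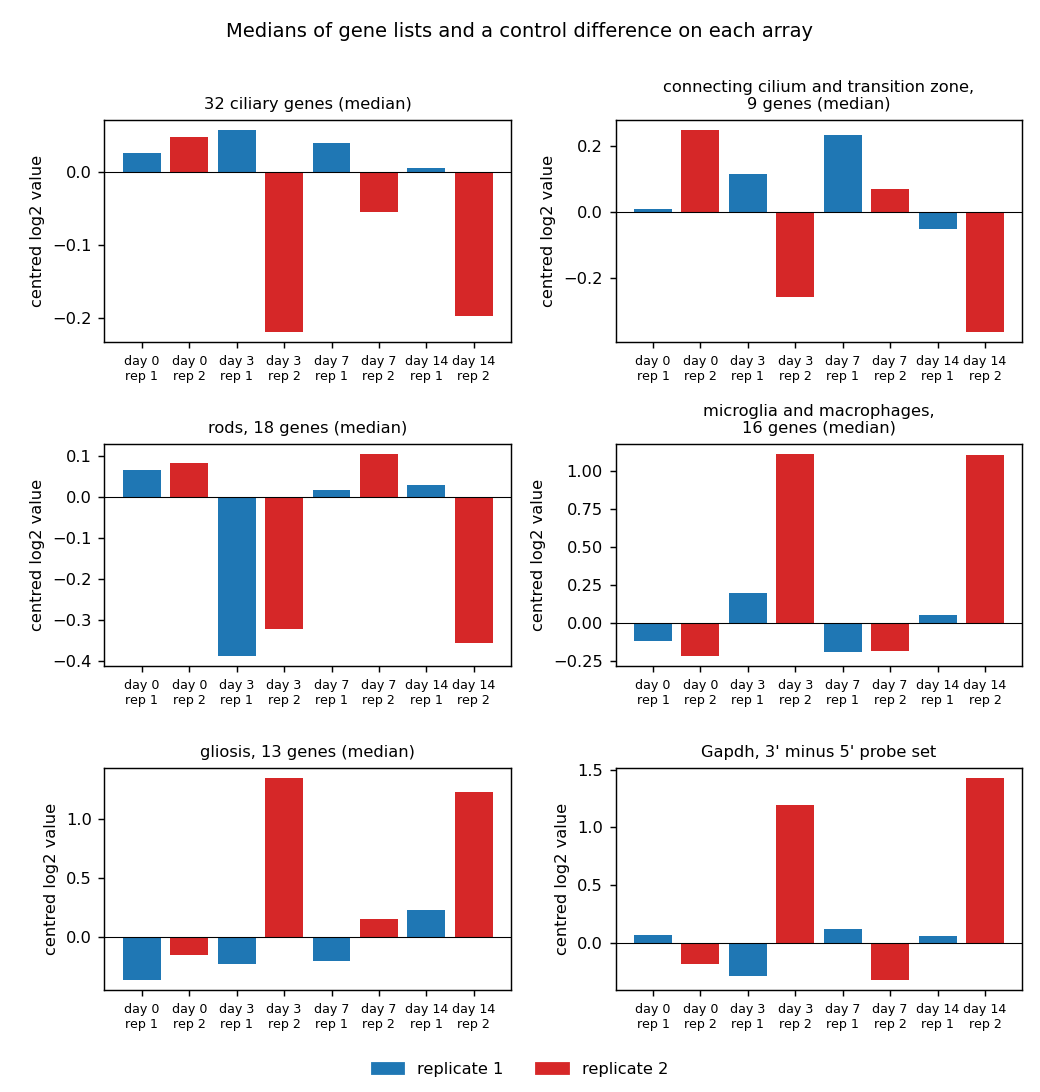
Median centred log2 value of 5 gene lists, and the 3' minus 5' difference of *Gapdh*, on each array (bars; blue for replicate 1, red for replicate 2; arrays run from day 0 to day 14). The ciliary genes have medians of -0.22 and -0.20 on the second arrays of days 3 and 14, those on which the microglial, gliosis and *Gapdh* bars exceed 1.

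Against controls, most ciliary genes lay slightly lower at every time. Genes of the connecting cilium and transition zone were among both the lowest and the highest at days 3 and 14. Their log2 folds ran from -0.79 to 0.54 at day 3 and from -1.22 to 0.32 at day 14. Of 32 genes, 19 were lower at day 3 (59.4%), 20 at day 7 (62.5%) and 21 at day 14 (65.6%), beside 40.8%, 51.9% and 36.0% of all genes. Median log2 folds were -0.13, -0.06 and -0.10 at days 3, 7 and 14, beside 0.06, -0.01 and 0.08 over all genes. In bulk retina, fewer cells of a type and less RNA per cell cannot be told apart. Without the 2 arrays that stood apart, the medians were -0.01 at day 3 and -0.01 at day 14.

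No ciliary gene passed an adjusted p of 0.05 in limma at any time, and 0% of all genes did. The lowest adjusted p among the ciliary genes was 0.427 at day 3, 1 at day 7 and 0.588 at day 14. At an unadjusted p under 0.05, 7 ciliary genes were lower at day 3 (4.61% of all genes) and 0 were higher (6.38%). At day 7, 0 were lower (0.456% of all genes) and 0 were higher (0.341%). At day 14, 4 were lower (3.56%) and 0 were higher (4.45%).

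Counted by arrays that did not overlap, 10 of the 32 genes had both day 3 arrays below both control arrays (16.1% of all genes) and 2 had both above (28.2%). At day 7, 4 were below (13.1%) and 0 above (12.1%). At day 14, 10 were below (15.2%) and 2 above (33.5%). Below both controls were thus 31.2% of the ciliary genes at days 3 and 14, and above both were 6.25%. Below at day 3 were *Bbs1*, *Bbs9*, *Cc2d2a*, *Ift122*, *Ift140*, *Ift172*, *Lca5*, *Rpgrip1*, *Ttc8* and *Unc119*. Below at day 14 were *Bbs1*, *Bbs9*, *Cc2d2a*, *Ift122*, *Kif3a*, *Lca5*, *Rpgr*, *Rpgrip1*, *Ttc8* and *Unc119*. The comparisons share their control arrays.

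The counts moved with single arrays. Without the second day 3 array, limma gave 5 ciliary genes lower and 7 higher at day 3 at an unadjusted p under 0.05, beside 9.56% and 10.3% of all genes, where it gave 7 and 0 with all arrays. The 7 were *Bbs4*, *Bbs5*, *Cep290*, *Ift74*, *Ift81*, *Iqcb1* and *Mkks*. Without the second control array, 1 gene was lower at day 3 (*Ift122*; 1.69% of all genes) and 1 at day 14 (*Rpgrip1*; 1.45%). Without the first control array, 4 were lower at day 3 (3.44%). Leaving out the first day 14 array gave 7 lower genes at that time (4.89%), and leaving out the second gave 2 (*Rpgr* and *Rpgrip1*; 1.11%). The sign of the log2 fold changed with the choice of array left out in 16 of the 32 genes at day 3, 25 at day 7 and 14 at day 14.

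**Figure D2:**
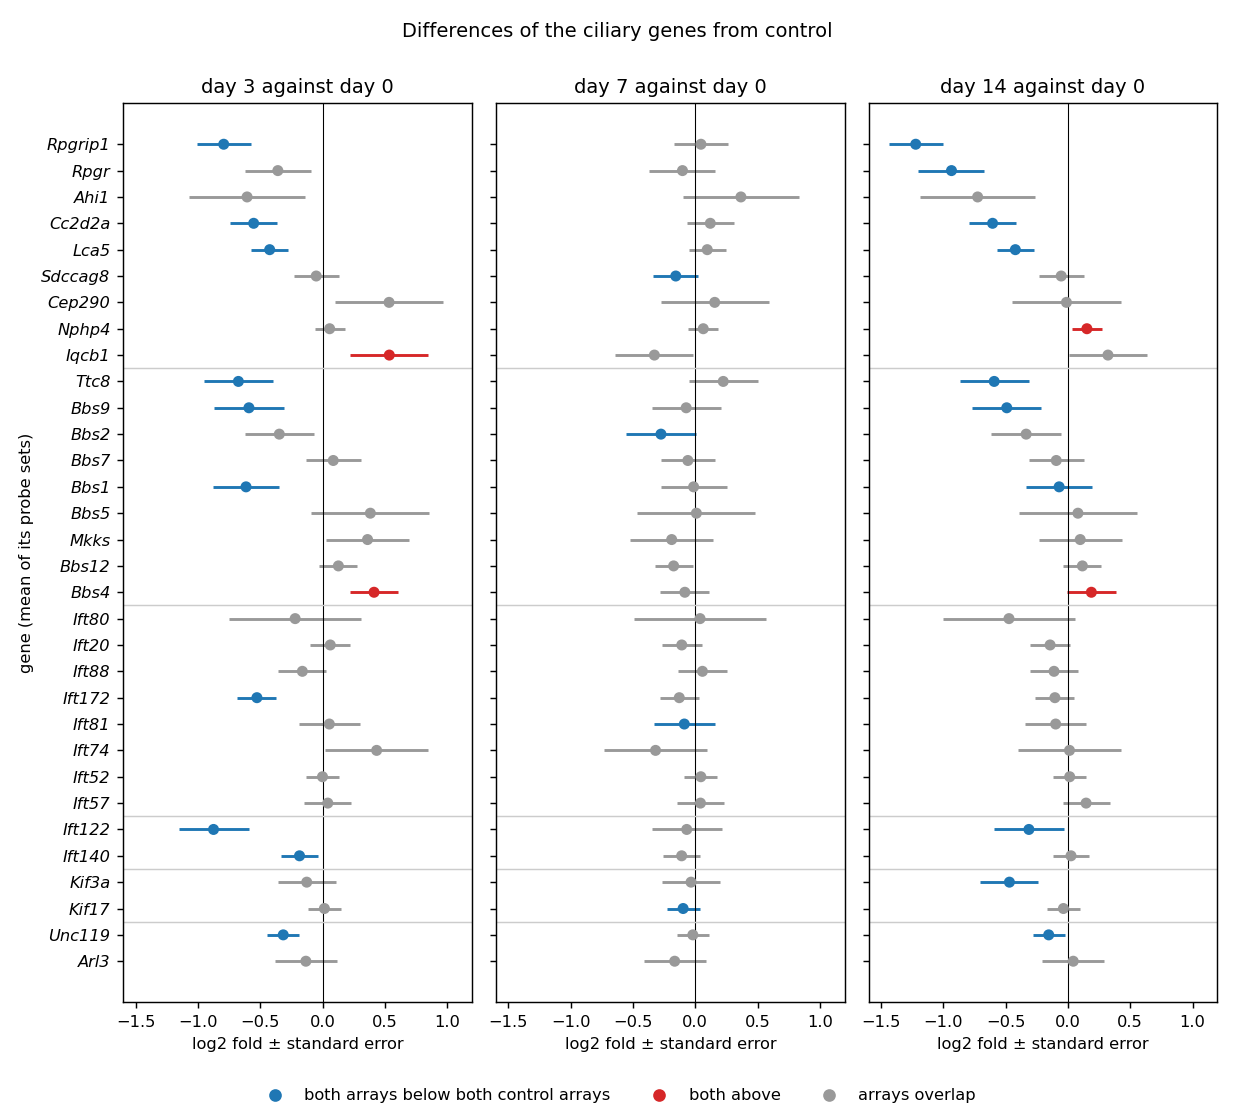
Log2 fold of each of 32 ciliary genes at days 3, 7 and 14 against day 0 (points; lines, SE from limma), grouped by role and ordered by the day 14 value. Blue marks genes with both exposed arrays below both control arrays (10, 4 and 10 genes at days 3, 7 and 14), red those with both above (2, 0 and 2).

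The 9 genes of the connecting cilium and transition zone act where the outer segment joins the cell. Their median log2 fold was -0.36 at day 3, 0.06 at day 7 and -0.42 at day 14. Without the second day 3 array the day 3 median was 0.001, with 4 genes lower and 5 higher, and without the second control array it was -0.10. The day 14 median lay between -0.52 and -0.27 as each array was left out. At day 14, 7 of the 9 were lower, 4 of them at an unadjusted p under 0.05, and the 4 were all the ciliary genes at that level. They were *Rpgrip1*, *Rpgr*, *Cc2d2a* and *Lca5*.

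*Rpgrip1*, the scaffold that holds Rpgr at the connecting cilium, had the largest difference of the 32 genes at day 14. Its centred log2 values were 0.17 and 0.67 on the control arrays, -0.16 and -0.58 at day 3, 0.43 and 0.50 at day 7, then -0.66 and -0.94 at day 14. Both day 14 arrays were the lowest of the 8, both day 3 arrays lay below the controls, and the day 7 arrays lay among them. The log2 fold was -1.22 ± 0.22 at day 14 (SE, n = 2 arrays each), 2.33-fold lower, with an unadjusted p of 0.000759 and an adjusted p of 0.588 in limma. Ordered by p among 18193 genes it was number 19, and ordered from the lowest log2 fold it was number 17. At day 3 it was -0.79 ± 0.22 (adjusted p = 0.427, limma), and at day 7 it was 0.05 ± 0.22.

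The 4 probe sets of *Rpgrip1* lay on the same side. At day 14, probe set 1454231_a_at gave a log2 fold of -1.40 ± 0.23, 1451785_at -1.40 ± 0.26, 1431357_a_at -1.18 ± 0.52 and 1421144_at -0.90 ± 0.24. The first of these had -0.98 on both day 14 arrays, against 0.18 and 0.67 on the control arrays, so the 2 arrays of the time were alike. In 1431357_a_at they were not, at -0.37 and -1.37, and without the second day 14 array its log2 fold was -0.68. The gene's own log2 fold at day 14 lay between -1.47 and -0.97 as each array was left out, and it was -1.08 without both arrays that stood apart.

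*Rpgr*, a regulator of small GTPases whose loss causes X-linked retinitis pigmentosa, was the second lowest at day 14. Its single probe set had -0.07 and 0.44 in controls, 0.20 and -0.55 at day 3, 0.09 and 0.07 at day 7, then -0.68 and -0.82 at day 14. The day 14 arrays lay below the other 6, whereas 1 day 3 array lay between the controls and 1 below them. The log2 fold was -0.93 ± 0.26 at day 14 (adjusted p = 0.605, limma), 1.91-fold lower. At day 3 it was -0.36 ± 0.26, and 0.01 without the second day 3 array. Over the leave-one-out fits the day 14 value ran from -1.19 to -0.68, and it was -0.86 without the 2 arrays that stood apart.

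*Cc2d2a*, a scaffold of the transition zone, had 0.16 and 0.39 in controls, -0.41 and -0.16 at day 3, 0.61 and 0.17 at day 7, then -0.25 and -0.42 at day 14. The day 3 and day 14 arrays were the 4 lowest of the 8. Its log2 fold was -0.55 ± 0.19 at day 3 and -0.60 ± 0.19 at day 14 (adjusted p = 0.427 and 0.613, limma). *Lca5* encodes lebercilin, which links the cilium's microtubules to IFT and is mutated in a Leber congenital amaurosis. It showed the same order, with 0.07 and 0.25 in controls, -0.23 and -0.30 at day 3, 0.38 and 0.13 at day 7, then -0.17 and -0.36 at day 14. Its log2 fold was -0.42 ± 0.15 at day 3 and also -0.42 ± 0.15 at day 14. In probe set 1428799_at of *Lca5* these were -0.69 and -0.61, and in its other probe set, 1430340_at, they were -0.16 and -0.23.

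**Figure D3:**
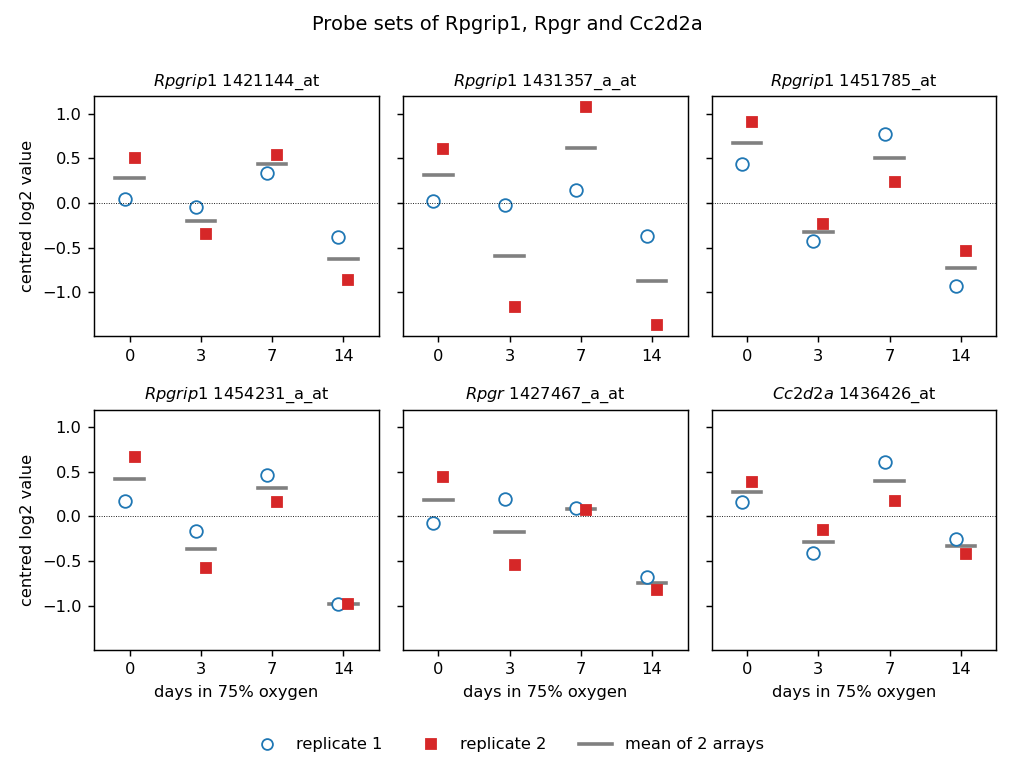
Centred log2 value of the 4 probe sets of *Rpgrip1* and the probe sets of *Rpgr* and *Cc2d2a* (circles, replicate 1; squares, replicate 2; grey lines, means of 2 arrays) at 0, 3, 7 and 14 days in 75% oxygen. The day 14 points lie below both control points in all 6 panels, while the day 7 points all lie above 0.

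These 4 genes were picked by their p at day 14, and whether they share a regulator was not tested. Their promoters are shown. Each is the 250 bases before the gene start in RefSeq (mouse build GRCm38.p6), read 5′ to 3′ on the gene's strand, with capitals for a match to an X-box or a CRX-type site. The X-box, the site of RFX factors that act on many ciliary genes, was searched as GTNNCC, then 0 to 3 bases, then NGNAAC. The CRX-type site, bound by the photoreceptor factor CRX, was searched as TAATCC. Both strands were read, and a palindromic X-box counts once for a gene. *Kif17*, an IFT motor gene, is added to show an X-box in a gene whose day 14 log2 fold was -0.04. Where RefSeq gives several starts (*Rpgr*, *Lca5*), 1 is shown.
Rpgrip1 chr14:52110653-52110902 (+ strand): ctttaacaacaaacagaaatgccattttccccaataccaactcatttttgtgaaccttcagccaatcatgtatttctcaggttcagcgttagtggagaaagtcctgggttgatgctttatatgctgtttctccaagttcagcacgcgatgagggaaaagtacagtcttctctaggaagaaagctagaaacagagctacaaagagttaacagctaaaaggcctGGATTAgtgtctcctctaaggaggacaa
Rpgr chrX:10216796-10217045 (- strand): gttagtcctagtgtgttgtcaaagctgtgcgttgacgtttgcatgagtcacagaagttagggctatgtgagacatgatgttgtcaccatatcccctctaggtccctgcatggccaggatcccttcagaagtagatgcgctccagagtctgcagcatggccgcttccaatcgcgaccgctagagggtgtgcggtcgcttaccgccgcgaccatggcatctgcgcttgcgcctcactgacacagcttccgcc
Cc2d2a chr5:43662129-43662378 (+ strand): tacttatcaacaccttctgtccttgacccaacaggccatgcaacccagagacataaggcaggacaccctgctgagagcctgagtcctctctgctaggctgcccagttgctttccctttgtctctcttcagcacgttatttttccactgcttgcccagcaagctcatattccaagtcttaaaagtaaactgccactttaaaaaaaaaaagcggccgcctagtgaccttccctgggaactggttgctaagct
Lca5 chr9:83441128-83441377 (- strand): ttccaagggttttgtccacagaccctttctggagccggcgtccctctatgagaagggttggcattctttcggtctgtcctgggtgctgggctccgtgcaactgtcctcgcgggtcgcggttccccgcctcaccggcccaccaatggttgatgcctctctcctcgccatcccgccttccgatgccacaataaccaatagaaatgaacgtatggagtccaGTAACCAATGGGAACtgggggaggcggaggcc
Kif17 chr4:138262001-138262250 (+ strand): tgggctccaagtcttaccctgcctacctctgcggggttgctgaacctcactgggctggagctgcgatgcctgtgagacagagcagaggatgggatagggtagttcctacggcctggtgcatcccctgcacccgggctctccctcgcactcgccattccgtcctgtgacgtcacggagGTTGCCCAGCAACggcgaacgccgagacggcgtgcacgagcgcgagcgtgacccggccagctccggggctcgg

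The *Rpgrip1* promoter held a CRX-type site whose last base lay 23 bases before the start. The X-box of *Lca5* ended 18 bases and that of *Kif17* 61 bases before the start, and the stretches of *Rpgr* and *Cc2d2a* held neither motif. The *Rpgrip1* start used by this entry lies inside the gene as annotated (chromosome 14, 52104241 to 52161339). Of the 35 genes, 31 had a RefSeq promoter of 300 bases (250 before and 50 after the start). An X-box was matched in 9 of them (29%), against 5.94% of 27025 genes, and with exactly 2 bases between its parts in 6 (19.4%), against 2.49%. A CRX-type site was matched in 3 (9.68%), against 8.14%. The 9 genes with an X-box were *Ahi1*, *Bbs1*, *Bbs4*, *Bbs7*, *Ift57*, *Ift74*, *Kif17*, *Lca5* and *Nphp4*, of which 1 (*Lca5*) was lower at an unadjusted p under 0.05 at day 14. Counted in the 250 bases before the start alone, 5 of the 31 genes had an X-box, against 5.04% of 27025 genes. With exactly 2 bases between its parts, 3 had one there, against 2.07%. Such a match describes letters and not binding.

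The other genes of this compartment went separate ways. *Ahi1*, which encodes jouberin of the transition zone, had a log2 fold of -0.61 ± 0.46 at day 3, 0.37 ± 0.46 at day 7 and -0.73 ± 0.46 at day 14. Its gene values were -0.17 and 0.73 in controls, 0.12 and -0.76 at day 3, 0.23 and 1.07 at day 7, then -0.05 and -0.83 at day 14. The control arrays alone lay 0.90 apart, and the day 14 arrays overlapped with them. Its day 14 log2 fold ran from -1.18 to -0.27 as each array was left out. *Iqcb1*, a calmodulin-binding partner of Rpgr, ran the other way at day 3, with 0.76 and 0.06 against 0.01 and -0.27 in controls (log2 fold 0.54 ± 0.31). At day 7 it had -0.11 and -0.80, and at day 14 -0.01 and 0.40. *Cep290*, a building block of the links between membrane and microtubules, had 1.24 on the first day 3 array and -0.17 on the second, against 0.01 and -0.01 in controls. Only 1 of its day 3 arrays was high. *Nphp4*, a nephrocystin of the transition zone, stayed within a range of 0.18 over the 8 arrays, and *Sdccag8*, a centrosomal protein, had a log2 fold of -0.05 at day 14.

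**Figure D4:**
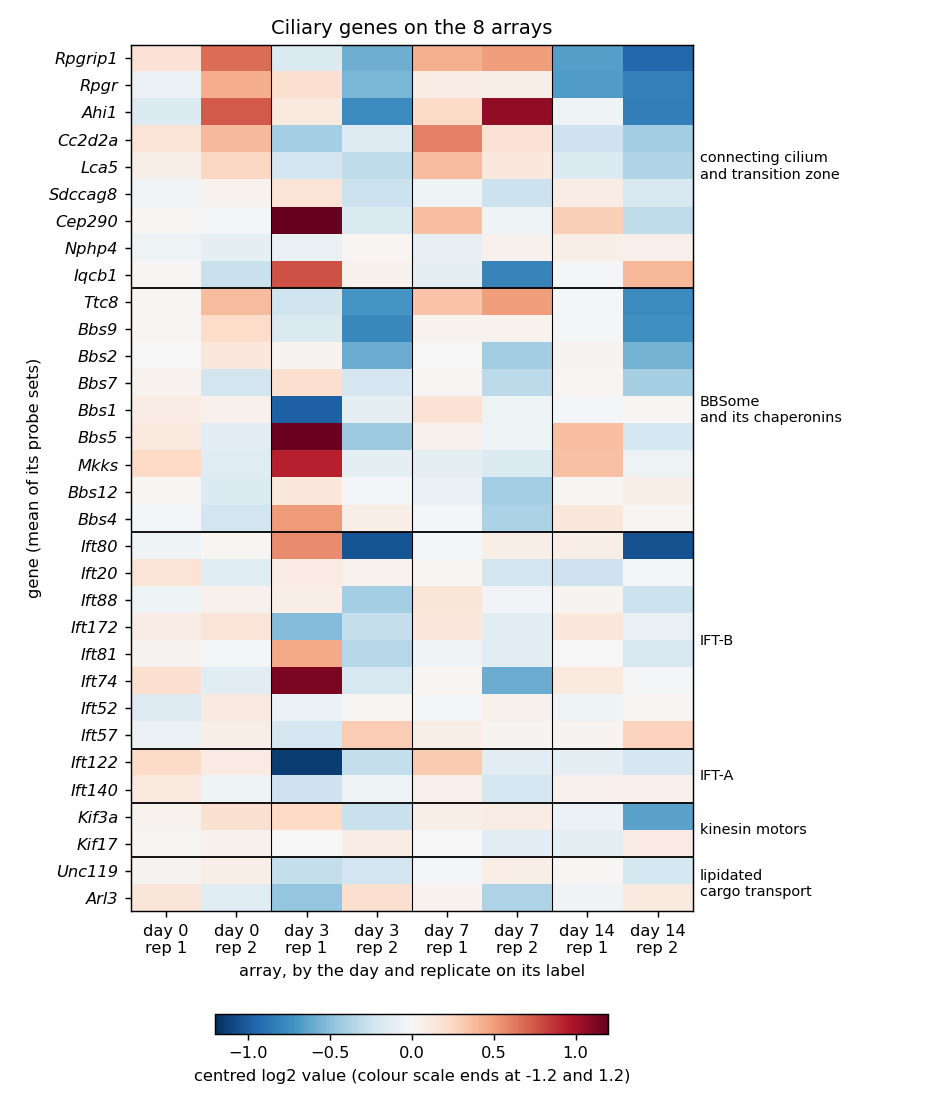
Centred log2 values of 32 ciliary genes (rows, grouped by role and ordered by the day 14 log2 fold) on the 8 arrays (columns, day 0 to day 14); red is above and blue below 0. *Rpgrip1* and *Rpgr* are blue on both day 14 arrays, 11 genes are lowest in the second columns of days 3 and 14, and several genes are red in the first day 3 column alone.

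The BBSome genes and the related chaperonins (9 genes) gave no common direction at day 3, with 4 lower and 5 higher and a median log2 fold of 0.09. At day 14, 5 were lower and 4 higher, with a median of -0.07. *Ttc8*, a BBSome subunit also called BBS8, had 0.02 and 0.38 in controls, -0.24 and -0.71 at day 3, 0.34 and 0.50 at day 7, then -0.02 and -0.77 at day 14. Its day 3 and day 14 arrays all lay below both controls, but on the first day 14 array the gap to the lower control was small. The log2 fold was -0.68 ± 0.28 at day 3 (adjusted p = 0.450, limma) and -0.59 ± 0.28 at day 14, where it was -0.22 without the second day 14 array. *Bbs9*, another subunit, had -0.18 and -0.77 at day 3 and -0.01 and -0.74 at day 14, against 0.01 and 0.22 in controls, with a log2 fold of -0.49 ± 0.28 at day 14, and of -0.13 without the second array of that time. *Bbs2* had -0.60 and -0.57 on the same 2 arrays that stood apart, and 0.04 and 0.03 on the other array of each time.

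*Bbs1*, the subunit that meets the GTPase Arl6, had its low value on a different array. It was -0.98 on the first day 3 array and -0.11 on the second, against 0.09 and 0.05 in controls. At day 14 it had -0.02 and 0.02, so that its log2 fold of -0.07 there lay well within its SE of 0.26. *Bbs5* (1.18) and *Mkks* (0.94), a chaperonin-like gene needed to assemble the BBSome, were high on that array, against -0.43 and -0.11 on the other day 3 array. *Bbs4*, a further subunit, was the BBSome gene with arrays above both controls at days 3 and 14. Its gene values were 0.51 and 0.08 at day 3 and 0.13 and 0.01 at day 14, against -0.02 and -0.22 in controls.

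Of the IFT-B particle, 4 of 8 genes were lower at day 3 and 5 at day 14, with medians of 0.02 and -0.10. *Ift172*, its largest subunit, had -0.52 and -0.28 at day 3, against 0.09 and 0.15 in controls, a log2 fold of -0.53 ± 0.16 (unadjusted p = 0.0117, adjusted p = 0.427, limma). At day 14 it had 0.13 and -0.09, and at day 7 0.13 and -0.14. Its difference was thus seen at day 3, and day 14 against day 3 gave 0.42 ± 0.16. *Ift74*, which binds tubulin together with Ift81, had 1.13 and -0.19 at day 3, against 0.19 and -0.13 in controls. Its log2 fold of 0.43 ± 0.41 rested on 1 array, and without it was -0.23. *Ift20*, *Ift52*, *Ift57* and *Ift88* had log2 folds between -0.14 and 0.15 at day 14.

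The IFT-A particle was measured by *Ift122* and *Ift140*, both in arrays below both controls at day 3. *Ift122* had the lowest log2 fold of the 32 genes at that time, -0.88 ± 0.28 (adjusted p = 0.427, limma), 1.83-fold lower. Its values were -1.14 and -0.28 at day 3, against 0.23 and 0.10 in controls, and the size rested on the first day 3 array. Without that array the log2 fold was -0.44, and without the second it was -1.31. At day 7 it had 0.31 and -0.12, and at day 14 -0.10 and -0.20. Its probe set 1427239_at had -1.11 and -0.59 at day 3, against 0.22 and 0.11 in controls, a log2 fold of -1.01 ± 0.22 and the smallest p of the 55 probe sets at day 3 (0.00268, adjusted p = 0.471, limma). *Ift140* had a log2 fold of -0.18 ± 0.15 at day 3.

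Of the motors, *Kif3a*, a subunit of the heterotrimeric kinesin that drives IFT outward, had -0.07 and -0.64 at day 14, against 0.04 and 0.18 in controls. Its log2 fold there was -0.47 ± 0.23 (unadjusted p = 0.082, limma), and -0.185 without the second day 14 array. With all arrays, all 4 of its probe sets lay lower, from -0.68 to -0.37. In probe set 1436560_at of *Kif3a* the day 14 arrays had -0.19 and -0.41, against 0.03 and 0.16 in controls. *Kif17*, a second ciliary kinesin, had log2 folds between -0.10 and 0.01 over the 3 times. For lipid-modified cargo, *Unc119*, which binds the acylated rod transducin, had -0.29 and -0.23 at day 3, against 0.03 and 0.08 in controls, and a log2 fold of -0.32 ± 0.13 (adjusted p = 0.449, limma). At day 14 it had 0.01 and -0.21, with a log2 fold of -0.15 ± 0.13. *Arl3*, the GTPase that releases such cargo, had -0.46 and 0.19 at day 3, on both sides of its controls (0.14 and -0.15).

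Day 7 was the time nearest to control. The 32 log2 folds lay between -0.33 (*Iqcb1*) and 0.37 (*Ahi1*), and the smallest unadjusted p belonged to *Bbs12*, a chaperonin-like gene, at 0.292 in limma. *Bbs12* had -0.08 and -0.41 at day 7, against 0.02 and -0.16 in controls. *Bbs2* had -0.01 and -0.41 at day 7, against 0.01 and 0.13, and *Sdccag8* -0.05 and -0.25, against -0.03 and 0.04. Both lay below their controls, by less on replicate 1 than on replicate 2. Of the low genes of the other times, *Ttc8* had a log2 fold of 0.22 ± 0.28, *Cc2d2a* 0.12 ± 0.19 and *Lca5* 0.10 ± 0.15. Among single probe sets the smallest p was that of *Sdccag8* 1456538_at (log2 fold -0.55 ± 0.30), which had -0.05 and -1.02 at day 7.

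Comparisons between exposure times give the difference of day 7 itself. Day 7 against day 3, 6 ciliary genes were higher at an unadjusted p under 0.05 (5.65% of all genes) and 2 were lower (8.76%). The 6 were *Rpgrip1*, *Cc2d2a*, *Lca5*, *Ttc8*, *Ift122* and *Ift172*, and the 2 were *Iqcb1* and *Bbs4*. Day 14 against day 7, 5 were lower (4.62%) and 0 higher (6.83%). The 5 were *Rpgrip1*, *Cc2d2a*, *Lca5*, *Rpgr* and *Ttc8*. Day 14 against day 3, 1 was higher (2.01%), which was *Ift172*, and 0 were lower (1.08%). In limma 0 ciliary genes passed an adjusted p of 0.05 in these comparisons, as did 0% of all genes.

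*Rpgrip1* had a log2 fold of -1.27 ± 0.22 at day 14 against day 7 (adjusted p = 0.410, limma), and of 0.84 ± 0.22 at day 7 against day 3. For *Ttc8* these were -0.82 ± 0.28 and 0.90 ± 0.28. For *Cc2d2a* they were -0.73 ± 0.19 and 0.67 ± 0.19. The order of times in these genes was day 7 and control high, day 3 and day 14 low. They were taken from those named in both comparisons, so much of this order comes from that choice. *Iqcb1* and *Bbs4* went the other way at day 7 against day 3. Without the second day 3 array, 2 ciliary genes passed the adjusted p for day 7 against day 3, *Bbs1* (log2 fold 1.04, adjusted p = 0.0406, limma) and *Ift122* (1.24, adjusted p = 0.0431), together with 521 of all genes. Both were then compared with the first day 3 array alone, assumed to vary like the other groups.

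Single arrays shaped many of the patterns. The gap between the 2 arrays of a time had a median over the 32 genes of 0.18 at day 0, 0.49 at day 3, 0.22 at day 7 and 0.22 at day 14, beside 0.14, 0.24, 0.17 and 0.18 over all genes. It was 1 or more in 5 ciliary genes at day 3, and the largest was 1.62 in *Bbs5*. In 11 of the 32 genes (34.4%), the 2 lowest values fell on the second arrays of days 3 and 14, against 9.01% of all genes. In 2 genes (6.25%) the 2 highest fell there, against 19.5%. The highest value was on the first day 3 array in 12 genes (37.5%), against 20.3%.

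Probe sets of 1 gene did not always move together, and 8 of the 14 genes with several had all of theirs on one side at day 14. The widest spread was in *Ift80*, an IFT-B subunit. Its probe set 1428329_a_at had -2.005 on the second day 3 array and -1.90 on the second day 14 array, and 0.88 and 0.09 on the other array of each time. In 1427568_a_at the same 2 arrays had -0.06 and -0.20, so only 1 of the probe sets carried the low values. *Ahi1* was alike, with -1.45 and -1.40 on those arrays in 1439083_at, and -0.07 and -0.26 in 1455177_at. The log2 fold of 1439083_at at day 14 was -1.03, and it was -0.35 without the 2 arrays that stood apart. *Bbs4* split the other way. Probe set 1420107_at had 0.67 and 0.27 at day 3 and 0.15 and 0.33 at day 14, against -0.24 and -0.49 in controls, with log2 folds of 0.83 ± 0.20 and 0.61 ± 0.20. Its 3 other probe sets had values between -0.26 and 0.29 at day 14.

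**Figure D5:**
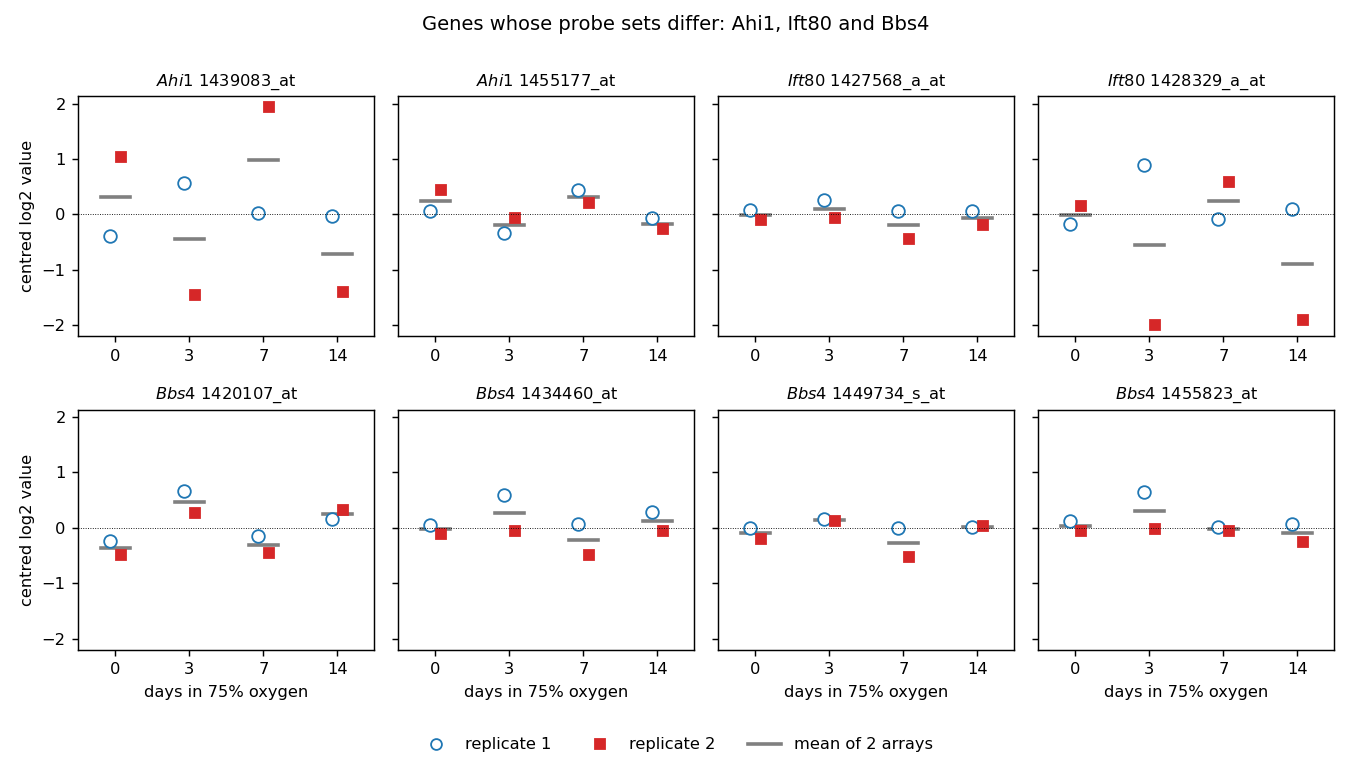
Centred log2 values of the probe sets of *Ahi1*, *Ift80* and *Bbs4* (circles, replicate 1; squares, replicate 2; grey lines, means of 2 arrays) at 0, 3, 7 and 14 days in 75% oxygen. Replicate 2 of days 3 and 14 lies between -1.40 and -2.005 in 1 probe set of *Ahi1* and 1 of *Ift80*, and not in the other.

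Of the 55 probe sets, 0 passed an adjusted p of 0.05 in limma at any time, as did 0% of all 45037. At day 3, 6 were lower at an unadjusted p under 0.05 (5.49% of all probe sets) and 1 was higher (4.83%), and 2 were lower by 2-fold (1.1%). The 2 became 1 without the second control array, and 4 without the first control or the second day 3 array. At day 7, 0 were lower (0.435%), 0 higher (0.429%) and 0 lower by 2-fold (0.0844%). At day 14, 7 were lower (5.13%), 1 was higher (3.14%) and 4 were lower by 2-fold (1.84%). The 4 at day 14 were 3 probe sets of *Rpgrip1* and 1439083_at of *Ahi1*. Their number was 7 or 8 when the first control or the first day 14 array was left out, and 2 when the second of either was. The counts at an unadjusted p under 0.05 also moved with the array left out, where 1 group holds a single array. Shares of all probe sets were not counted for the fits with an array left out. The moves of these counts and of the 2-fold counts are thus not read as particular to ciliary probe sets. With all arrays, the higher probe set was 1420107_at of *Bbs4* at both day 3 and day 14.

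Further ciliary genes, 66 on 7 lists, included more genes of the same machinery. At day 14, 38 were lower and 28 higher than control, with a median log2 fold of -0.03, beside 0.08 over all genes. At an unadjusted p under 0.05, 7 (10.6%) were lower and 1 (1.52%) higher at day 14, beside 3.56% and 4.45% of all genes. At day 3, 8 (12.1%) were lower and 2 (3.03%) higher, beside 4.61% and 6.38%. The numbers of lower genes at days 3 and 14 moved with the array left out, and so did the shares of all genes in the same fits. The 11 genes of the photoreceptor axoneme and calyx, the microtubule core and disc-forming base of the outer segment, had 10 lower at day 3 (median log2 fold -0.39) and 9 at day 14 (median -0.29). Without the first day 3 array 7 were lower at day 3 (median -0.25), and without the second day 14 array 7 were lower at day 14 (median -0.15). *Mak*, a kinase that limits the length of the photoreceptor axoneme, had -0.32 and -1.07 at day 14, against 0.01 and 0.55 in controls (log2 fold -0.98 ± 0.35). *Rfx7*, a member of the RFX family of X-box factors, had -0.47 and -1.001 at day 14, against 0.17 and 0.25 (log2 fold -0.95 ± 0.18, adjusted p = 0.588, limma). Of the 7 ciliary transcription factors on its list, 3 were lower and 4 higher at day 14, with a median log2 fold of 0.02. *Pcm1*, a scaffold of the granules around the basal body, had -0.30 and -0.79, against 0.15 and 0.26. *Kif7*, a kinesin at the tip of the cilium, was higher, with 0.28 and 0.11 at day 14 against -0.23 and -0.29 in controls (log2 fold 0.46 ± 0.12). The 13 other IFT particle genes had medians of 0.13 at day 3 and 0.08 at day 14, beside 0.06 and 0.08 over all genes. At day 14, 6 were lower and 7 higher, with log2 folds from -0.61 to 0.39. At an unadjusted p under 0.05 in limma, 2 were lower and 0 higher at day 14, beside 3.56% and 4.45% of all genes.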

How the data were processed

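RNA was measured on 8 arrays, grouped by the time on their labels. Per the labels, the authors derived the log2 values by RMA, which corrects background, quantile-normalizes arrays and summarises probes (its version is not stated). In addition, the deposited table has a median of 0 for every probe set (tolerance 1e-06), through a step not given in the sources used here, so the values hold no level. The methods also describe MAS5 values, which were not used here. Of 45101 probe sets, 64 controls were set aside. Probe sets naming 1 gene (34945) were averaged per gene, and those naming several (932) or none (9160) entered the probe set fit alone. Precision is limited by the number of arrays.

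With limma 3.58.1 (R 4.3.3), lmFit and eBayes were run on the means of the 4 times (4 residual and 3.12 prior degrees of freedom for genes, 2.71 prior for probe sets). The Benjamini-Hochberg adjustment ran over all genes or all probe sets, at a threshold of 0.05. The fit was tested on simulated data. The genes and lists were chosen with earlier results of these data known. The values to be given were chosen by rule. They were those of genes the study names (*Ahi1*, *Rpgr*, *Rpgrip1*) and those with the smallest p (up to 6 genes and 6 probe sets at each time). Added were the 3 largest log2 folds in each direction, the 3 genes whose probe sets differ most, and up to 4 genes of the other lists. Array values of some of these are given at some times only, as a range, or not at all. Other values were named after they were seen. Tables were made in Python 3.11.15 with pandas 2.3.3.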

Additional observations from a re-analysis of the deposited data

How the results depend on the processing

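The alternatives were further quantile normalization, subtraction of array medians, other ways to join or choose probe sets, a robust fit, the compared groups alone, a one-way analysis of variance, a replicate block, and leaving out each array or both arrays that stood apart. Ciliary genes and probe sets past an adjusted p of 0.05 stayed at 0 under all of them, except for 2 genes at day 7 against day 3 without the second day 3 array. None of the 19 differences of genes or probe sets followed under all alternatives changed sign. These were, by limma, the genes with an unadjusted p under 0.05, together with probe sets higher at that level or lower by 2-fold. Differences picked in this way from the same arrays could hardly change sign, so their kept sign is no test of robustness. Among all 32 ciliary genes, whether picked or not, changes of sign with the array left out were common. The median log2 fold over the 32 genes lay between -0.274 (without the first day 3 array) and -0.0139 at day 3, between -0.12 and 0.01 at day 7, and between -0.21 and -0.01 at day 14 as each array was left out. At an unadjusted p under 0.05, the one-way analysis of variance gave 2 genes lower at day 3 (2.58% of all genes) and 0 at day 14 (2.5%). It gave 0 higher at day 3 (4.58%) and 1 at day 14 (*Nphp4*; 4.73%). In limma, the probe set with the largest SD for each gene gave 3 lower (4.24%) and 2 lower (3.35%) at these times. Higher there was 1 gene, *Bbs4*, at day 3 (4.86%) and at day 14 (2.83%). At day 14, 1 ciliary probe set was lower by 2-fold on both arrays against both controls. This was counted for the ciliary probe sets alone, so no share of all probe sets can be set beside it.

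The replicate numbers did not pair the arrays, since deviations from the group means of same-numbered arrays correlated between -0.40 and 0.55 over the pairs of times. With the replicate block, 0 ciliary genes passed an adjusted p of 0.05 at day 14 (lowest 0.614), and 5 genes were lower (4.5% of all genes) and 1 higher (6.79%) at an unadjusted p under 0.05 at day 3. A filter on dim probe sets could not be run, because the values hold no level, and signal over background is unknown.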
